A study of Mus musculus with 12 samples.

Results

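Apelin, its receptor, the VEGF system and a set of endothelial genes were followed across mouse whole-brain samples. The genes were Apln, Aplnr, Vegfa, Flt1, Kdr, Tek, Mmrn2, Cldn5, Esam and Pecam1. They were picked by symbol as apelin and its receptor, VEGF receptors and endothelial markers, and because Apln, Flt1 and Mmrn2 were known to be low after conduritol B epoxide and not low when GZ-667161 was given with it. Of the 10 genes listed, 9 had a row in the count table and all 9 passed the filter on low counts, among 12623 genes tested of 16482 with a usable symbol. Aplnr was not analysed here. The levels of the 9 genes in the 3 treatment groups chose them in part, so those levels and fold changes are a description. In the main fit, counts of these genes past an adjusted threshold are given beside the share of all genes past it. No p is given for them in comparisons of these groups, and nothing is drawn from the counts.

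The mice were C57BL/6, and 3 groups of 4 samples each were profiled. The CBE+GZ-667161 group received both conduritol B epoxide (CBE) and GZ-667161, and all 4 samples were taken at postnatal day 40. The CBE group received CBE alone, with 2 samples at postnatal day 34 (replicates 2 and 3) and 2 at day 40 (replicates 4 and 6). The PBS group received the vehicle, and all 4 samples were taken at day 40. CBE blocks acid beta-glucosidase, the lysosomal enzyme that is lost in Gaucher disease, and it gives a chemical, not a genetic, model of the neuronopathic form. GZ-667161 enters the brain and inhibits glucosylceramide synthase, which makes the lipid that this enzyme breaks down. The labels do not say whether the samples are separate mice, and they give neither sex nor dose, so p-values measure only the spread between these samples, which may be technical.

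Apelin is a secreted peptide that acts on a G protein-coupled receptor. In growing vessels it is made by the endothelial tip cells that lead a sprout. VEGF-A, released in brain by astrocytes and neurons and raised by low oxygen, drives sprouting through VEGF receptor signalling in the endothelium. The endothelium of brain vessels also forms the blood-brain barrier, sealed by tight junctions. Counts come from homogenised brain, so fewer cells of a type, endothelial or other, and less RNA per cell cannot be told apart. Nor do the counts show which cells made a transcript.

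Sequence upstream of the gene start was held for 6 of the 10 genes in RefSeq (GRCm38.p6, the same coordinates as mm10), and 4 of them are shown. Apln, Flt1 and Vegfa are shown because their levels were low together in CBE brains, and Cldn5 as an endothelial gene whose levels overlapped between groups. Each run is the 250 bases before the gene start in RefSeq, 5′ to 3′ in the direction of the gene. For Vegfa the RefSeq start lies upstream of the GENCODE start whose coordinates are given with its values, and for the others shown the starts are the same. The reading direction was also checked against the transcripts for Apln, Flt1 and Cldn5, and for Vegfa it is as RefSeq gives it. Capitals mark the ETS-type cores AGGAAG and CGGAAG, a motif class common near endothelial genes, and the hypoxia response core ACGTG. Both strands were searched, so that a match on the other strand appears as its reverse complement.
Apln promoter, chrX:48034854-48035103, minus strand: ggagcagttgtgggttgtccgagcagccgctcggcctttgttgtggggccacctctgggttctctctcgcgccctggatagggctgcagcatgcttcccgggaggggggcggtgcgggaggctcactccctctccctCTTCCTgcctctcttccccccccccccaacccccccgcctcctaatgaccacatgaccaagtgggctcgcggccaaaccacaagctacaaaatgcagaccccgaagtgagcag
Flt1 promoter, chr5:147726012-147726261, minus strand: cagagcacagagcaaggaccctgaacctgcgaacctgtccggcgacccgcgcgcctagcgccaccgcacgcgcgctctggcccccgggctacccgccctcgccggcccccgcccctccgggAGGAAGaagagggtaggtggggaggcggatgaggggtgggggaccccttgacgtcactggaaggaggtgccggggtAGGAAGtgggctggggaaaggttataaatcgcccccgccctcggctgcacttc
Vegfa promoter, chr17:46032378-46032627, minus strand: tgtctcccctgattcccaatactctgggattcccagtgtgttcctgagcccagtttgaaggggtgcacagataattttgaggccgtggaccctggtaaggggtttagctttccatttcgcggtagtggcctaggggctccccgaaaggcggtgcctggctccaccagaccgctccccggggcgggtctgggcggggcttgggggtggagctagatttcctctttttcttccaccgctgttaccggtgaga
Cldn5 promoter, chr16:18776597-18776846, plus strand: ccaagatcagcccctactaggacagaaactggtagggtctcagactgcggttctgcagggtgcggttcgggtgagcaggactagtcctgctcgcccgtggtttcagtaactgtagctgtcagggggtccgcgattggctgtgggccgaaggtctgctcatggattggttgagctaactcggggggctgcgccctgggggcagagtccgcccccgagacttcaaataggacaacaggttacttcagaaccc
The Apln window held 1 AGGAAG match, on the opposite strand and 113 bases before the start. The Flt1 window held 2, at 129 and 53 bases before the start. The windows shown for Vegfa and Cldn5 held none of the 3 motifs. RefSeq also lists a Vegfa start further into the gene, whose window (chr17:46025164-46025413, not shown) held 1 ACGTG match, on the opposite strand and 211 bases before that start. Of 32851 mouse windows of this length, 29.5% held AGGAAG, 13.6% CGGAAG and 16.6% ACGTG. The ETS-type cores differ in 1 base, so that a place can match only 1 of them. The matches are descriptions of letters only.

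Apln (mm10 chrX:48025146-48034853, minus strand), the apelin precursor, had the lowest CBE level of the genes followed when set against PBS. It measured 28.4, 37.9, 37.9 and 18.3 CPM in CBE+GZ-667161 brains, 10.2, 8.89, 3.50 and 5.96 CPM in CBE brains, and 31.5, 42.1, 32.7 and 28.8 CPM in PBS brains. CPM here is the read count scaled to the TMM-adjusted library size, as edgeR computes it. Every CBE sample lay below every sample of the other groups, whereas the CBE+GZ-667161 and PBS samples overlapped. The means were 30.6 ± 9.37 CPM in CBE+GZ-667161, 7.15 ± 3.02 in CBE and 33.8 ± 5.81 in PBS (SD, n = 4 each). CBE brains thus held 21.2% of the PBS mean, and CBE+GZ-667161 brains 90.7%. The fitted log2 fold change was -2.30 ± 0.29 (SE) for CBE against PBS, the 3rd lowest of 12623 genes, 2.19 ± 0.29 for CBE+GZ-667161 against CBE and -0.12 ± 0.24 for CBE+GZ-667161 against PBS. The CBE values rest on 19, 16, 10 and 18 reads per sample, against 119, 198, 78 and 187 reads in PBS.

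Vegfa (chr17:46016993-46032369, minus strand) encodes VEGF-A, the main growth factor for endothelium. It measured 32.9, 39.9, 37.3 and 30.3 CPM in CBE+GZ-667161 brains, 26.9, 27.8, 13.7 and 20.9 CPM in CBE brains, and 34.1, 39.1, 45.7 and 34.5 CPM in PBS brains. As with Apln, no CBE sample reached the range of either other group. The log2 fold change was -0.80 ± 0.20 for CBE against PBS, 0.69 ± 0.20 for CBE+GZ-667161 against CBE and -0.11 ± 0.18 for CBE+GZ-667161 against PBS. CBE brains held 58.2% of the PBS mean of Vegfa and CBE+GZ-667161 brains 91.5%.

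**Figure D1:**
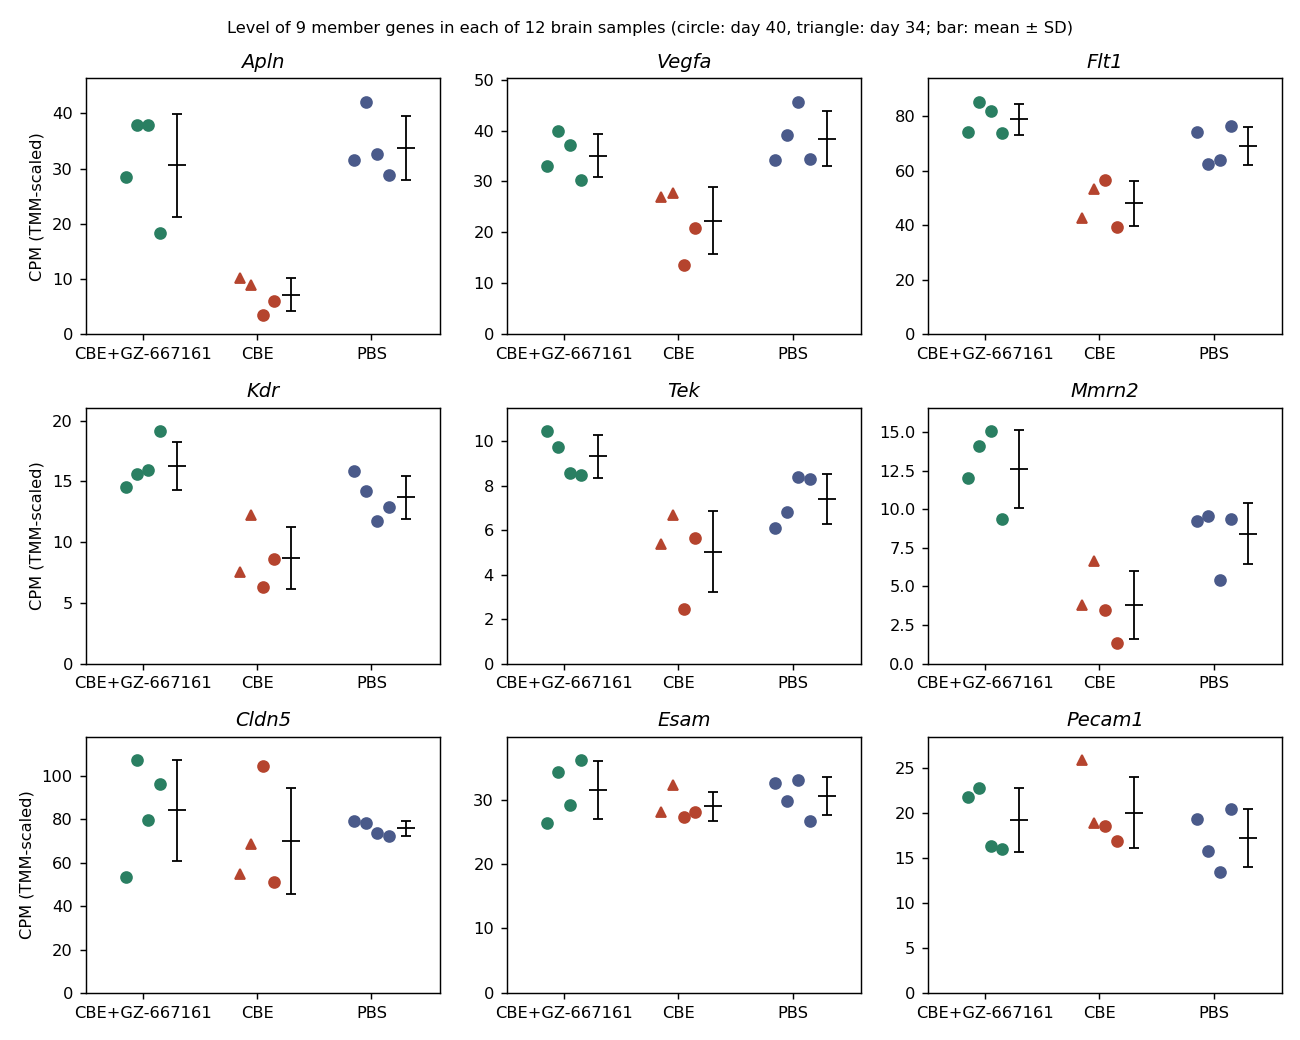
Level of each of the 9 genes in every sample, in TMM-scaled CPM, with the mean ± SD beside the points of a group; circles are day 40 and triangles day 34. The CBE points of Apln, Vegfa and Flt1 lie below all points of the other groups, and those of Cldn5, Esam and Pecam1 overlap with both.

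Of the receptors, Flt1 (chr5:147561604-147726011, minus strand) encodes VEGF receptor 1, which binds VEGF-A tightly and signals weakly. It measured 74.3, 85.3, 82.0 and 73.9 CPM in CBE+GZ-667161 brains, 42.6, 53.3, 56.7 and 39.4 CPM in CBE brains, and 74.1, 62.3, 64.1 and 76.3 CPM in PBS brains. The CBE samples were again all below the rest, by a smaller margin than for Apln. The log2 fold change was -0.53 ± 0.14 for CBE against PBS and 0.72 ± 0.14 for CBE+GZ-667161 against CBE. Flt1 also makes a short transcript for a soluble receptor, and counts per gene do not separate the forms.

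Kdr (chr5:75932827-75978458, minus strand) encodes VEGF receptor 2, the main signalling receptor for VEGF-A. It measured 14.5, 15.6, 15.9 and 19.2 CPM in CBE+GZ-667161 brains, 7.54, 12.2, 6.30 and 8.61 CPM in CBE brains, and 15.9, 14.3, 11.7 and 12.9 CPM in PBS brains. CBE replicate 3 lay inside the PBS range, while all 4 CBE samples were below all 4 CBE+GZ-667161 samples. The log2 fold change was -0.69 ± 0.23 for CBE against PBS and 0.92 ± 0.22 for CBE+GZ-667161 against CBE.

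Tek (chr4:94739289-94874976, plus strand) encodes the angiopoietin receptor TIE2. It measured 10.5, 9.75, 8.58 and 8.46 CPM in CBE+GZ-667161 brains, 5.39, 6.67, 2.45 and 5.63 CPM in CBE brains, and 6.09, 6.81, 8.38 and 8.31 CPM in PBS brains. The CBE+GZ-667161 samples were all above both other groups, and 1 CBE sample lay within the PBS range. The log2 fold change was 0.92 ± 0.29 for CBE+GZ-667161 against CBE, 0.34 ± 0.27 for CBE+GZ-667161 against PBS and -0.58 ± 0.30 for CBE against PBS.

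Mmrn2 (chr14:34375465-34404287, plus strand) encodes multimerin-2, a matrix glycoprotein laid down by endothelial cells. It measured 12.04, 14.1, 15.1 and 9.35 CPM in CBE+GZ-667161 brains, 3.77, 6.67, 3.50 and 1.32 CPM in CBE brains, and 9.26, 9.57, 5.45 and 9.38 CPM in PBS brains. PBS replicate 4 fell inside the CBE range, and the CBE+GZ-667161 samples were all above the CBE samples. The mean was 12.6 ± 2.52 CPM in CBE+GZ-667161, 3.82 ± 2.19 in CBE and 8.42 ± 1.98 in PBS (SD, n = 4 each), so CBE+GZ-667161 brains stood at 150.1% of the PBS mean and CBE brains at 45.3%. The log2 fold change was -1.25 ± 0.36 for CBE against PBS and 1.82 ± 0.36 for CBE+GZ-667161 against CBE. Its CBE values rest on 7, 12, 10 and 4 reads.

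The samples of the 3 groups overlapped in the junction and adhesion genes. Cldn5 (chr16:18776847-18778262, plus strand), the tight junction protein claudin-5, averaged 84.2 ± 23.3 CPM in CBE+GZ-667161, 69.9 ± 24.4 in CBE and 75.8 ± 3.41 in PBS (SD, n = 4 each). Its CBE samples ran from 51.0 to 104.7 CPM and enclosed all 4 PBS samples, at 72.1 to 79.1 CPM. Esam (chr9:37528078-37538319, plus strand), an endothelial adhesion molecule of tight junctions, averaged 31.4 ± 4.50 CPM in CBE+GZ-667161, 28.9 ± 2.22 in CBE and 30.5 ± 2.97 in PBS (SD, n = 4 each). Pecam1 (chr11:106654217-106750628, minus strand), an adhesion molecule of endothelium, platelets and leukocytes, had a log2 fold change of 0.19 ± 0.20 for CBE against PBS, the only positive one of the 9. For Cldn5 it was -0.11 ± 0.22 and for Esam -0.07 ± 0.15.

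**Figure D2:**
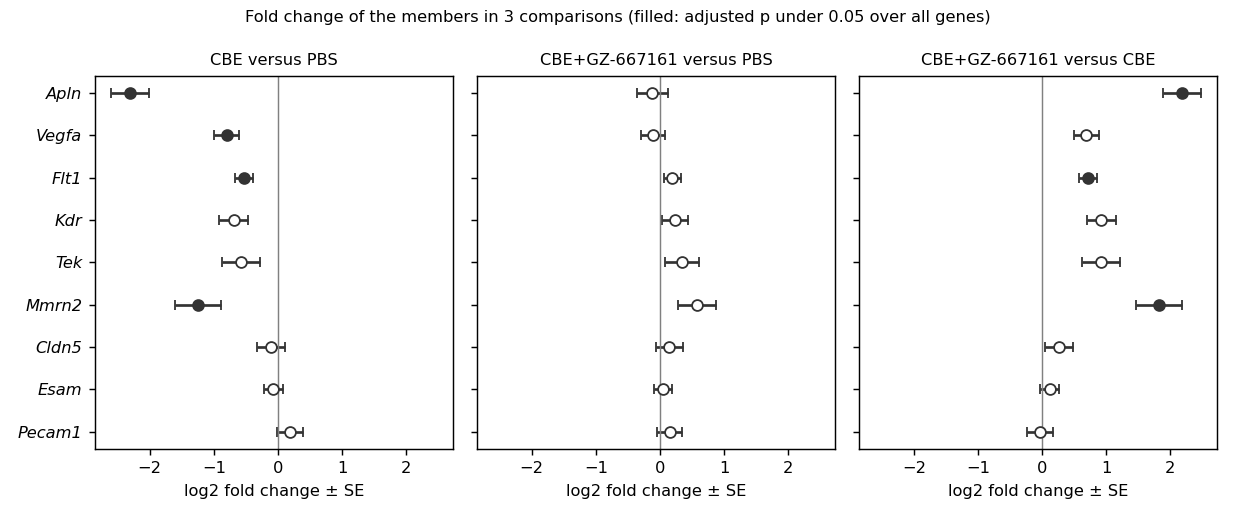
Log2 fold change with its standard error for the 9 genes in the 3 comparisons of treatment groups, from the fit over all 12623 genes; filled points have an adjusted p under 0.05. Apln stands at -2.30 in CBE against PBS and at 2.19 in CBE+GZ-667161 against CBE, and the 9 points lie between -0.12 (Apln) and 0.57 (Mmrn2) in CBE+GZ-667161 against PBS, with none filled.

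At an adjusted p under 0.05 (edgeR's quasi-likelihood test over all genes), 4 of the 9 genes were called lower in CBE than in PBS, namely Apln, Flt1, Mmrn2 and Vegfa, where 11.0% of all genes were called and 4.04% called lower. Of all genes 6.95% were called higher, and none of the 9 was. In 3 of the 9 (Apln, Flt1 and Vegfa) the ranges of CBE and PBS were apart, a feature of 15.6% of all genes. For CBE+GZ-667161 against CBE, 3 were called higher (Apln, Flt1 and Mmrn2), where 1.28% of all genes were called, 0.444% higher and 0.832% lower. The groups did not overlap in 6 of the 9 there, against 8.09% of all genes. For CBE+GZ-667161 against PBS, 0 of the 9 were called by edgeR, limma-voom or DESeq2, where edgeR called 3.45% of all genes and 3.11% higher. There 0 of the 9 had an unadjusted p under 0.05, a cut for which the share of all genes is not given. Only Tek did not overlap between those groups, against 9.78% of all genes. These contrasts were used to choose the genes and they share samples, so the counts carry no weight of their own. The median log2 fold change of the 9 was -0.58 in CBE against PBS (all genes -0.01) and 0.72 in CBE+GZ-667161 against CBE (all genes 0.01). The authors' deposited table put 4 of the 9 below an adjusted p of 0.05 between CBE and PBS, 5 between CBE+GZ-667161 and CBE, and 0 between CBE+GZ-667161 and PBS.

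The counts above depended on single libraries. Over the 12 omissions of 1 library, the log2 fold change of CBE against PBS ran from -2.53 to -2.05 for Apln, -0.92 to -0.61 for Vegfa, -0.62 to -0.44 for Flt1 and -1.62 to -0.91 for Mmrn2. Flt1 was no longer counted without PBS replicate 2, PBS replicate 5 or CBE replicate 6. Mmrn2 was no longer counted without PBS replicates 2, 3 or 5, CBE replicates 2, 4 or 6, or CBE+GZ-667161 replicates 3 or 4. Between CBE+GZ-667161 and CBE the values ran from 1.93 to 2.40 for Apln, 0.63 to 0.81 for Flt1 and 1.49 to 2.20 for Mmrn2. There Flt1 was no longer counted without CBE replicate 6 or CBE+GZ-667161 replicates 3 or 4, and Mmrn2 without these or CBE replicate 4.

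The CBE group holds both ages, a comparison that the choice of genes did not use. Apln measured 3.50 and 5.96 CPM at day 40 and 10.2 and 8.89 CPM at day 34. Vegfa measured 13.7 and 20.9 CPM at day 40 and 26.9 and 27.8 CPM at day 34, and Mmrn2 3.50 and 1.32 CPM at day 40 and 3.77 and 6.67 CPM at day 34. The log2 fold change of day 40 over day 34 was -1.004 ± 0.45 for Apln (adjusted p = 0.296), -0.66 ± 0.25 for Vegfa (adjusted p = 0.218) and -1.11 ± 0.54 for Mmrn2 (adjusted p = 0.347), by edgeR. For Flt1 it was 0.00 ± 0.20 (adjusted p = 0.997). None of the 9 passed, where 0.665% of all genes did, and DESeq2 and limma-voom called 0. An unadjusted p under 0.05 was met by 2 (Apln and Vegfa). The share of all genes at that cut is not given, so nothing is drawn from these 2. Set against the day 40 PBS samples, Apln stood at 14.01% of the PBS mean in day 40 CBE brains and at 28.3% in day 34 CBE brains. No PBS sample was taken at day 34. The 2 day 34 CBE libraries were the smallest, at 1836002 and 1753626 counts. Age, depth and any other difference between the 2 and 2 CBE samples cannot be told apart. With the 2 day 40 CBE samples left out, the log2 fold change of Apln was -1.80 in CBE against PBS and 1.67 in CBE+GZ-667161 against CBE, and the counts of the 9 genes called were 1 and 0.

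**Figure D3:**
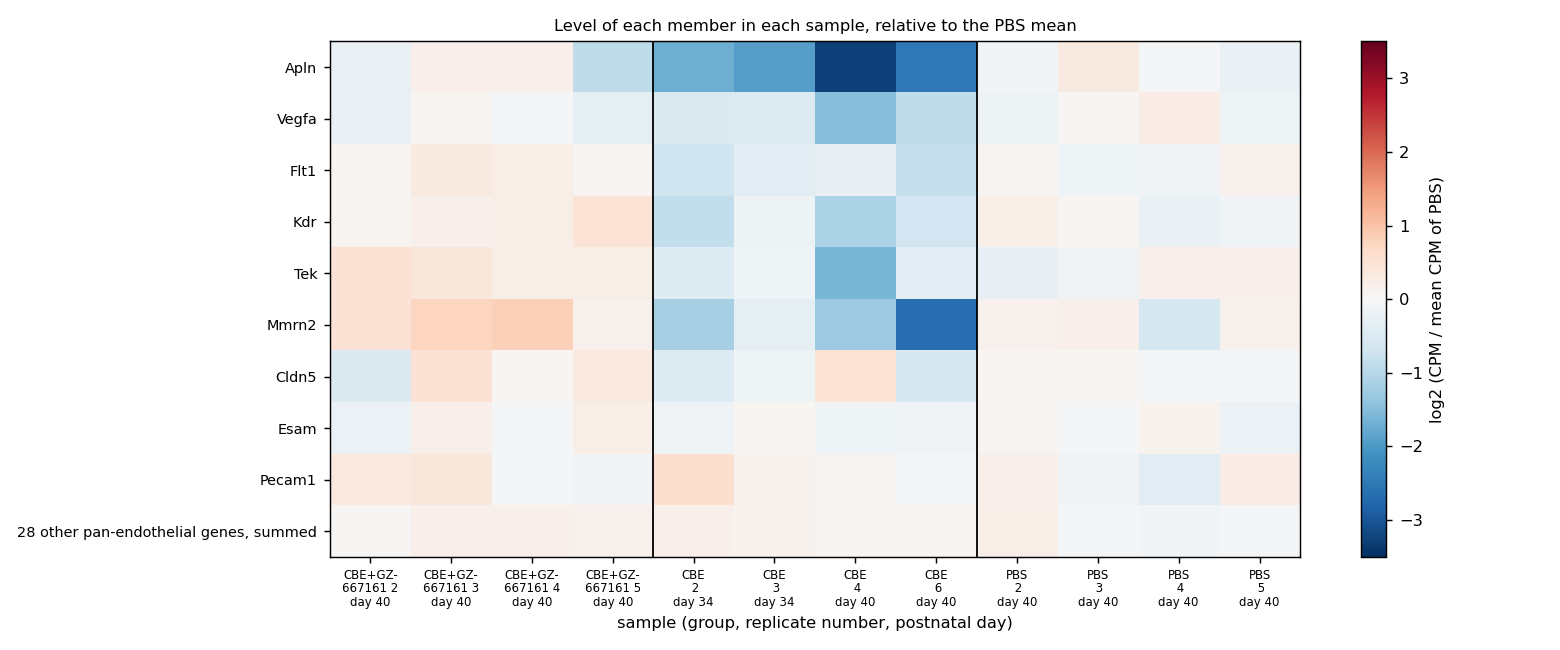
Level of each gene in each sample on a log2 scale relative to the PBS mean, with the summed level of 28 other pan-endothelial genes in the bottom row; blue is lower and red higher. The Apln row is blue in all 4 CBE samples, deepest in the 2 of day 40, while the summed row stays near white in all 12 samples.

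Endothelial content was read from 28 other pan-endothelial genes, a list chosen with earlier results of these data known. Their summed level was 869 ± 40.0 CPM in CBE+GZ-667161, 852 ± 27.8 in CBE and 790 ± 77.9 in PBS (SD, n = 4 each), with ranges of 811 to 897, 829 to 887 and 745 to 907 CPM that overlap. The largest part came from Epas1, also among the hypoxia-linked genes below, at 181 ± 17.3, 206 ± 50.9 and 178 ± 15.8 CPM in that order. The sum, also without Ly6a and Ly6c1, is thus weighted to Epas1 and does not measure endothelial content alone. Of the 28, 2 rose in CBE against PBS and 0 fell, and 8 had an unadjusted p under 0.05. The median log2 fold change was -0.11 (all genes -0.01), and 11 of the 28 values were positive. Vwf, the clotting factor stored by endothelium, rose by 1.13 ± 0.20 on the log2 scale (adjusted p = 0.0012), at 24.8 ± 4.91 CPM in CBE and 11.3 ± 2.12 in PBS. Ecscr, an endothelial surface protein, rose by 1.10 ± 0.30 (adjusted p = 0.0252), and this call was lost without PBS replicates 2 or 5 or CBE replicates 2 or 3, with values of 0.95 to 1.33. Cdh5, the endothelial cadherin, measured 9.82 ± 3.27 CPM in CBE and 10.5 ± 4.21 in PBS (adjusted p = 0.807). The 4 genes below PBS at an unadjusted p under 0.05 were Tmem88 at -1.05 ± 0.35 (adjusted p = 0.0669), Tie1 at -0.96 ± 0.44 (adjusted p = 0.185), Ushbp1 at -0.85 ± 0.33 (adjusted p = 0.114) and Ptprb at -0.56 ± 0.21 (adjusted p = 0.101). Divided by the summed level of the list without Ly6a and Ly6c1, Apln stood at 44.3 ± 12.7 per 1000 CPM in CBE+GZ-667161, 10.8 ± 4.87 in CBE and 53.9 ± 11.8 in PBS, and Flt1 at 114.5 ± 6.38, 71.7 ± 11.8 and 109.8 ± 12.5 (SD, n = 4 each). Apln on this scale ran from 26.7 to 54.8 in CBE+GZ-667161, 4.82 to 15.4 in CBE and 43.0 to 70.4 in PBS. Of the 28, 1 rose in CBE+GZ-667161 against PBS, Vwf (log2 fold change 0.81 ± 0.20, adjusted p = 0.0276), lost when any 1 of replicates 3, 4 and 5 of either group was left out (0.75 to 0.96). In CBE+GZ-667161 against CBE none was called by edgeR, 4 had an unadjusted p under 0.05, DESeq2 called 1 and limma-voom 0.

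Other ligands and receptors of the VEGF, angiopoietin, PDGF and TGF-beta families were taken as a list. Of 15 tested, 2 rose and 0 fell in CBE against PBS, with a median of 0.05. Tgfb1, a cytokine that also acts on vessels and is made by microglia, rose by 1.54 ± 0.25 (adjusted p = 0.000528). Angptl4, a secreted lipase inhibitor, rose by 1.21 ± 0.31 (adjusted p = 0.0166; 0.95 to 1.33 over the libraries left out, lost without CBE replicate 6). Angptl4 averaged 5.25 ± 2.03 CPM in CBE+GZ-667161, 16.1 ± 5.42 in CBE and 6.93 ± 0.969 in PBS, and was lower in CBE+GZ-667161 than in CBE (log2 fold change -1.65 ± 0.32, adjusted p = 0.0238), a call lost without CBE replicates 4 or 6 or CBE+GZ-667161 replicates 3 or 4 (-1.83 to -1.39). Vegfb, a ligand of Flt1 and not of Kdr, had a log2 fold change of -0.33 ± 0.11 for CBE against PBS (adjusted p = 0.0531). Tie1, the partner of Tek, is also on this list, with the value given above. Nrp1, a VEGF co-receptor, stood at 0.14 ± 0.40 (adjusted p = 0.87). Apela, the other apelin receptor ligand, and Angpt2 were not analysed here. Between CBE+GZ-667161 and PBS none of the 15 was called by edgeR, 2 had an unadjusted p under 0.05, DESeq2 called 1 and limma-voom 0.

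Of 19 tip cell and sprouting genes, 3 rose and 2 fell in CBE against PBS (median -0.03). Unc5b, a netrin receptor of sprouting endothelium, stood at -1.08 ± 0.27 (log2 fold change, adjusted p = 0.0141), and measured 23.6 ± 5.12 CPM in CBE+GZ-667161, 14.9 ± 5.24 in CBE and 30.3 ± 8.95 in PBS. That call was lost without CBE replicate 4 or 6 (-1.28 to -0.88). Mcam, an adhesion molecule of vessels, stood at -0.92 (adjusted p = 0.0393; called in 6 of 12 omissions at -1.22 to -0.78, lost without PBS replicates 2, 3 or 5 or CBE replicates 3, 4 or 6). Plaur, the urokinase receptor, rose by 1.98 ± 0.45 (adjusted p = 0.00786) and Cxcr4, a chemokine receptor, by 1.88 ± 0.44 (adjusted p = 0.0104). Both are also expressed by microglia and other myeloid cells. Igfbp3, which binds insulin-like growth factors, rose by 1.18 ± 0.33 (adjusted p = 0.0305; 0.80 to 1.43, lost without PBS replicates 2, 3 or 4 or CBE replicates 4 or 6). Dll4, the Notch ligand of tip cells, stood at -0.87 ± 0.49 (adjusted p = 0.285). Of the 19, none in CBE+GZ-667161 against CBE was called by edgeR, 7 had an unadjusted p under 0.05, DESeq2 called 1 and limma-voom 0. Against PBS none was called in CBE+GZ-667161 by any of these tools, and 5 had an unadjusted p under 0.05.

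Of 28 blood-brain barrier genes, 2 rose and 1 fell in CBE against PBS (median 0.13). Slco2b1, an organic anion transporter that microglia also express, rose by 0.73 ± 0.20 (adjusted p = 0.0254; called in 6 of 12 omissions at 0.60 to 0.93, lost without PBS replicates 3, 4 or 5 or CBE replicates 2, 3 or 6). Ctla2a, a protease inhibitor, rose by 1.08 ± 0.30 (adjusted p = 0.0301; called in 9 of 12 at 0.67 to 1.25, lost without PBS replicates 2 or 5 or CBE replicate 4). Slco1c1, the thyroxine transporter of brain endothelium and astrocytes, fell by 0.86 ± 0.27 (adjusted p = 0.0494), a call held in 3 of 12 omissions (-0.99 to -0.57), those of PBS replicate 5, CBE replicate 3 and CBE+GZ-667161 replicate 2. Slc2a1, the glucose transporter GLUT1, stood at 0.63 ± 0.23 (adjusted p = 0.0874). Of the 28, 1 was called in CBE+GZ-667161 against PBS, Slco2b1 at 0.79 ± 0.19 (adjusted p = 0.0296), lost when any 1 of replicates 3, 4 and 5 of either group was left out (0.74 to 0.90). Of 14 endothelial Wnt pathway genes, none was called by edgeR, DESeq2 or limma-voom in CBE against PBS, and 2 had an unadjusted p under 0.05 (median -0.03).

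Of 16 genes listed for endothelial activation, 9 rose and 1 fell in CBE against PBS, with a median log2 fold change of 1.43 against -0.01 for all genes. Several of them, among them Icam1, Cd74, Csf2rb, Ch25h, Cebpd and Socs3, are also expressed by microglia or other myeloid cells. Summed microglia genes averaged 3750 ± 856 CPM in CBE+GZ-667161, 5063 ± 951 in CBE and 1195 ± 51.6 in PBS (SD, n = 4 each), and the part of this in the list's change was not tested. Icam1, the leukocyte adhesion molecule of inflamed endothelium, measured 9.55 ± 2.69 CPM in CBE+GZ-667161, 23.1 ± 8.39 in CBE and 3.66 ± 1.07 in PBS (SD, n = 4 each), and rose by 2.62 ± 0.31 in CBE against PBS (adjusted p = 2.02e-05). Lcn2, lipocalin-2, also an astrocyte gene, measured 32.1 ± 32.7 CPM in CBE+GZ-667161, 224 ± 143 in CBE and 3.55 ± 0.655 in PBS, and rose by 5.99 ± 0.66 (adjusted p = 9.77e-06). Cebpd, a transcription factor of the acute response, rose by 2.19 ± 0.25 (adjusted p = 1.62e-05). Thbd, the anticoagulant thrombomodulin, stood at -0.96 (adjusted p = 0.0436; -1.22 to -0.74, lost without PBS replicates 2, 3 or 4, CBE replicates 4 or 6, or CBE+GZ-667161 replicate 3). In CBE+GZ-667161 against CBE, 3 of the 16 were lower, namely Lcn2 at -2.92 ± 0.53 (adjusted p = 0.0167), Cebpd at -1.20 ± 0.24 (adjusted p = 0.0257) and Icam1 at -1.32 ± 0.28 (adjusted p = 0.0329). Each of these 3 calls was lost without CBE replicate 4 or CBE+GZ-667161 replicates 3 or 4, Lcn2 and Icam1 also without CBE replicate 6, and Icam1 also without CBE+GZ-667161 replicate 2, with values of -3.84 to -2.58, -1.35 to -1.02 and -1.46 to -1.09 in that order. In CBE+GZ-667161 against PBS 5 were higher by edgeR, 6 by DESeq2 and 2 by limma-voom, among the 5 Ch25h, an oxysterol enzyme, at 3.25 ± 0.37 (adjusted p = 2.83e-05).

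**Figure D4:**
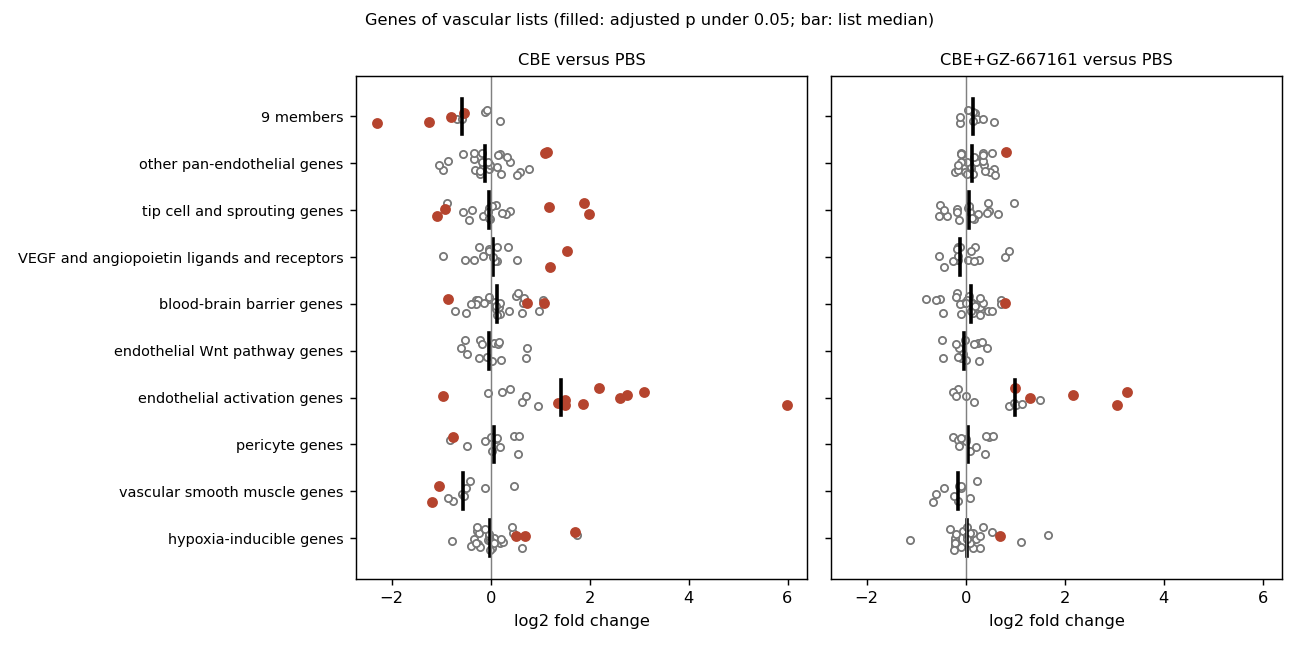
Log2 fold change of each gene of the vascular lists in CBE against PBS (left) and CBE+GZ-667161 against PBS (right); filled points have an adjusted p under 0.05 and the black bar is the list median. In CBE against PBS the bar of the 9 genes followed lies at -0.58, that of the other pan-endothelial genes at -0.11 and that of the activation genes at 1.43.

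Mural cells were read from pericyte and smooth muscle genes. Of 12 pericyte genes, 1 was called in CBE against PBS by edgeR and 2 by DESeq2 (median 0.07). It was Rgs5, a G protein regulator, which fell by 0.76 ± 0.23 (adjusted p = 0.0399; -0.86 to -0.58, lost without PBS replicates 2, 3 or 5, CBE replicates 2, 4 or 6, or CBE+GZ-667161 replicate 4). Pdgfrb, the pericyte growth factor receptor, stood at 0.11 ± 0.24 (adjusted p = 0.828). Of 10 smooth muscle genes, 2 fell (median -0.56), namely the contractile genes Tagln, by 1.04 ± 0.28 (adjusted p = 0.0217; -1.22 to -0.93, lost without PBS replicates 2, 3 or 5 or CBE replicates 4 or 6), and Acta2, by 1.19 ± 0.37 (adjusted p = 0.0499; -1.50 to -0.86, held only without PBS replicate 4, CBE replicate 2 or CBE replicate 3). Between CBE+GZ-667161 and PBS none of these genes was called by edgeR, DESeq2 or limma-voom, and 1 pericyte gene and 0 smooth muscle genes had an unadjusted p under 0.05.

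Vegfa is one of the genes that low oxygen raises. Of 28 other hypoxia-linked genes, 3 rose and 0 fell in CBE against PBS (median -0.01), while DESeq2 called 5. The 3 were Hif3a at 1.71 ± 0.46 (adjusted p = 0.0232), Hif1a, the oxygen-regulated transcription factor itself, at 0.70 ± 0.21 (adjusted p = 0.0445), and Pdk1, a kinase that slows glucose oxidation, at 0.52 ± 0.16 (adjusted p = 0.0479). Hif3a was lost without PBS replicates 4 or 5 or CBE replicates 4 or 6 (1.31 to 1.99), and Hif1a without any PBS replicate, CBE replicates 2 or 3, or CBE+GZ-667161 replicate 5 (0.49 to 0.79). Pdk1 held only without PBS replicate 4 or CBE+GZ-667161 replicates 4 or 5 (0.46 to 0.58). Pdk1 was also higher in CBE+GZ-667161 than in PBS, at 0.68 ± 0.16 (adjusted p = 0.018; called in 10 of 12 at 0.61 to 0.77, lost without PBS replicate 2 or CBE+GZ-667161 replicate 4).

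Markers of other brain cells also differed between the groups. In CBE against PBS, 10 of 13 microglia genes and 6 of 12 astrocyte genes rose, and 8 of 14 neuron genes, 2 of 11 oligodendrocyte genes and 1 of 6 erythroid genes fell (2 called by DESeq2). The summed microglia genes ran from 2580 to 4640 CPM in CBE+GZ-667161, 4297 to 6323 CPM in CBE and 1138 to 1262 CPM in PBS, the astrocyte genes from 4638 to 5218, 5580 to 5954 and 4325 to 5083 CPM, and the neuron genes from 6201 to 7378, 5514 to 6533 and 7698 to 7958 CPM in the same order. The summed oligodendrocyte genes ran from 3839 to 8843 CPM in CBE+GZ-667161, 3132 to 6376 in CBE and 6080 to 7569 in PBS, and the erythroid genes from 1536 to 4039, 1387 to 1858 and 2095 to 4178 CPM. The 4 CBE samples, in which Apln, Vegfa and Flt1 were low, thus had microglia and astrocyte sums above, and neuron and erythroid sums below, those of all 4 PBS samples. In the 4 CBE+GZ-667161 samples these 3 genes lay above all 4 CBE samples. Apln in replicates 2 and 5 (28.4 and 18.3 CPM) and Vegfa in the same samples (32.9 and 30.3 CPM) lay below all 4 PBS samples. The 4 CBE+GZ-667161 samples also had microglia sums above and neuron sums below all 4 PBS samples. Replicate 5 had the highest microglia sum of its group, 4640 CPM, and the lowest neuron sum, 6201 CPM. In CBE+GZ-667161 against PBS, 10 of 13 microglia genes and 1 of 12 astrocyte genes rose, and edgeR called 0 of 14 neuron genes (DESeq2 1). The part of these shifts in the levels of the 9 genes was not tested. Of 3 platelet, 5 choroid plexus and 10 vascular fibroblast genes none was called in CBE against PBS by edgeR, DESeq2 or limma-voom, and 1, 1 and 0 had an unadjusted p under 0.05. Ttr, the main choroid plexus transcript, varied between samples of a group, at 108 ± 148 CPM in CBE+GZ-667161, 198 ± 215 in CBE and 36.7 ± 44.6 in PBS.

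Apln lies on the X chromosome, and the samples differed in Xist, the RNA that coats the inactive X in females. Xist measured 25.7, 13.9, 0.42 and 11.1 CPM in CBE+GZ-667161 brains, 0, 0.56, 0.35 and 0 CPM in CBE brains, and 0.26, 0.21, 7.96 and 18.3 CPM in PBS brains. The CBE samples were thus all low, and the other groups were mixed. Among samples with Xist under 1 CPM, Apln stood at 37.9 CPM in the CBE+GZ-667161 sample, 3.50 to 10.2 CPM in the 4 CBE samples, and 31.5 and 42.1 CPM in the 2 PBS samples. No CBE sample had high Xist, so CBE brains with high Xist could not be set against the others. The PBS samples with more Xist averaged 30.7 CPM of Apln, and those with less 36.8 CPM. With Xist as a covariate, the log2 fold change in CBE against PBS was -2.47 for Apln, -1.33 for Mmrn2, -0.81 for Vegfa and -0.51 for Flt1. In CBE+GZ-667161 against CBE it was 2.45 for Apln. Flt1 was then no longer called in CBE against PBS, and neither Flt1 nor Mmrn2 in CBE+GZ-667161 against CBE.

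Likeness to Apln was measured as the root mean square difference of the 12 log2 levels, each taken relative to the mean of the PBS samples for that gene, over the 12622 other genes. Among the 6 nearest were Ugt8a (0.43), which makes the myelin lipid galactosylceramide from ceramide, 2310069G16Rik (0.53), Fzd2 (0.56), a Wnt receptor, Hbb-bt (0.59), a beta globin, and Btbd17 (0.60). Ugt8a measured 12.04 ± 4.48 CPM in CBE+GZ-667161, 2.97 ± 2.27 in CBE and 11.2 ± 2.47 in PBS. Of the genes followed, Vegfa ranked 112th (0.86), Mmrn2 158th (0.89) and Kdr 563rd (1.03), against a median of 1.38 over all genes, and Cldn5 (1.35), Esam (1.33) and Pecam1 (1.48) were near that median. Flt1 ranked 1087th (1.11). Its own nearest genes were Rab2b (0.12), Dusp22 (0.16), Ift172 (0.16) and Swsap1 (0.17). Genes of large change were compared by size as well as by shape, so the distances rank patterns of these 12 samples only.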

How the data were processed

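RNA from whole brain was sequenced with a bulk form of MARS-seq, per the labels' protocols. Raw counts per gene symbol were deposited by the authors as whole numbers, and cutadapt, HISAT 0.1.6, HTSeq and DESeq2 with the mouse build mm10 are named in the submitters' processing notes. Not given in the sources used here are the annotation and the treatment of molecular identifiers and strand. Normalized signal that the authors deposited equals the raw counts times 1 constant per library (largest relative departure 4.96e-10). The authors' deposited table holds log2 fold changes and adjusted p-values, used only to count genes.

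A date stood in place of the symbol in 23 rows, with 0.266% to 0.347% of a library's counts, and these were left out. Total counts ran from 1753626 to 6499257 per sample, so low genes carry the widest error. edgeR 4.0.16 (TMM, filterByExpr with a minimum count of 10 and a minimum total of 15, glmQLFit, glmQLFTest) was fitted to all 12 samples in 3 groups, and in 4 groups to compare the days. P-values were adjusted by Benjamini and Hochberg over 12623 genes. DESeq2 1.42.0, limma 3.58.1 (voom), other scalings and filters, an Xist term, a replicate block and omitted samples were alternatives. The steps were tested on simulated data. Patterns used a prior count of 2. Genes were named by a rule: all members, up to 3 genes of smallest p per list, the genes nearest to Apln and Flt1, and a fixed few; Mcam, Thbd, Tmem88, Ushbp1 and Ptprb were added after their values were seen, and some genes that the rule took are given by counts only or are not reported here. The members, lists and rule were chosen with earlier results of these data known. Gene positions are from GENCODE for mm10 and R was 4.3.3.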

Additional observations from a re-analysis of the deposited data

Results flagged for a closer look

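Of 27 sets of 4 samples tested (9 genes in 3 groups), 2 held a sample far from its group, where chance gives about 1 in 20. Mmrn2 in PBS was low in replicate 4, at 5.45 CPM, with a gap of 0.924 of the group's whole range. Esam in CBE was high in replicate 3, at 32.2 CPM, with a gap of 0.830 of the range.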

How the results depend on the processing

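No gene result that was called in the main fit or in the alternative run turned its direction. Changes of sign in results called in neither were not counted. The count of genes called in CBE against PBS was 1387, and 751 without the day 40 CBE samples (962 to 1515 leaving out 1 library). Of the 9 genes, 4 were called there, 1 with a replicate block, 1 without the day 40 CBE samples, and 2 to 5 leaving out 1 library. For CBE+GZ-667161 against CBE, with 1.28% of genes called, the count was 489 by DESeq2, 82 with the replicate block, 67 with Xist as a covariate, 692 without the day 34 CBE samples, 2 without the day 40 CBE samples, and 5 to 269 leaving out 1 library. Of the 9 genes, 3 were called there, 5 by DESeq2, 1 with the replicate block, 1 with Xist as a covariate, 5 without the day 34 CBE samples, 0 without the day 40 CBE samples, and 1 to 4 leaving out 1 library. Between the days 84 genes were called, 33 higher and 51 lower (26 and 67 when scaled by total count only), 247 by DESeq2, 16 by limma-voom and 0 to 13 leaving out 1 library; 0 of the 9 were called in each of these. Fewer samples were fitted in the omissions, and for the other changes the cause was not tested. Leaving out the day 40 CBE samples was chosen after seeing the data.

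Same-numbered samples of different groups had correlations across genes of -0.08 to 0.24, and samples of unlike number -0.27 to 0.42. The labels do not say whether the numbers pair the samples. These overlapping ranges cannot decide it. With the replicate block, CBE against PBS had 947 calls. No paired analysis was possible for the days because the 2 ages share no replicate number. Low counts limit Mmrn2, Tek and Apln in CBE most, with 4 to 19 reads per sample. Of the 6 genes nearest to Apln, 4 were shared with a prior count of 0.5 and 5 among genes of at least 5 CPM.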

Other observations

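Some genes outside the members differed between the day 40 and day 34 CBE samples (edgeR, 2 samples each), where age and depth cannot be told apart. Igfbp3 measured 32.9 ± 6.40 CPM at day 40 and 11.3 ± 4.50 at day 34 (log2 fold change 1.55 ± 0.31, adjusted p = 0.0374), and Mfsd2a, the lipid transporter of brain endothelium, 114 ± 16.0 and 46.7 ± 4.03 CPM (1.28 ± 0.22, adjusted p = 0.0215). Ly6a, an endothelial surface protein, was lower at day 40 (-1.27 ± 0.27, adjusted p = 0.0442), as were the lipid transfer protein gene Pltp (-1.50 ± 0.28, adjusted p = 0.0304), Vtn, made by pericytes (-0.80 ± 0.16, adjusted p = 0.0325), and Myl9, a smooth muscle gene (-1.26 ± 0.25, adjusted p = 0.0373). With any 1 of the 4 samples left out, none of these 6 stayed called except Ly6a without CBE replicate 6.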
